A study of Mus musculus with 6 samples.

Results

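To ask which genes differ when human LEENE is supplied to Leene-KO mice, read counts per gene were set side by side for CD144-enriched cells of KO + LEENE and KO + GFP. The comparison rests on 4 of the 6 libraries of the study, 2 per group, chosen by their sample titles. Both groups were Leene-KO mice, in which the mouse region syntenic to human LEENE was deleted with CRISPR/Cas9 on a C57BL/6J background. Both groups were fed a high-fat, high-sucrose diet, underwent hind limb ischemia (HLI) surgery on day 0 and received adenovirus in the ischemic muscle on days 1 and 4 by the labels. KO + GFP received the vector for green fluorescent protein (Ad-GFP), and KO + LEENE received the vector for GFP-tagged human LEENE (Ad-LEENE). Muscle was taken after 1 week, and cells were enriched with magnetic beads against CD144 (VE-cadherin), an adhesion protein of endothelial cells (ECs). The third group, WT + GFP, shared the fit and is given as side values. The labels give neither the age nor the sex of these mice, the number of mice behind a library, nor the promoter of the vectors, and bead enrichment leaves other cells of the muscle in the fraction. Neither human LEENE nor GFP was analysed here, so the vector labels were not checked against the transgenes.

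LEENE is a long noncoding RNA (lncRNA) of ECs that was named for enhancing the expression of eNOS, the enzyme that makes nitric oxide in the vessel wall. After an artery is blocked, ECs of the muscle sprout new capillaries in response to VEGF ligands and Notch, angiopoietin and PDGF signals, while macrophages, fibroblasts and muscle stem cells clear and rebuild the tissue. CD144 joins ECs to each other, and beads against it are used to enrich ECs from digested tissue.

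Reads assigned to genes numbered 5602603 and 3625419 in KO + GFP, against 1770992 and 1791336 in KO + LEENE. A floor of 3 reads was 0.535 and 0.827 CPM (reads scaled to a library total of 1000000) in KO + GFP against 1.69 and 1.67 CPM in KO + LEENE. Genes with at least 10 reads numbered 5846 and 4791 in KO + GFP against 4574 and 4640 in KO + LEENE. After each library was thinned to the smallest total the numbers were 3454 and 3382 in KO + GFP against 4574 and 4607 in KO + LEENE. With equal totals of assigned reads more genes thus reached 10 reads in the LEENE libraries. The 20 most abundant genes of a library took 52.4% and 52.6% of its reads in KO + GFP against 57.5% and 57.5% in KO + LEENE. Reads, not molecules, were counted, so copies of 1 molecule are not told apart, and floors cover counting error only.

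Libraries of a group differed little. Over the 2463 genes with at least 10 reads in all 4 KO libraries, the median size of the log2 ratio between replicates was 0.138 in KO + GFP and 0.154 in KO + LEENE, and the largest was 1.46 and 1.66. Pearson's r of log2 CPM across these genes, which are not independent replicates, was 0.992 within KO + GFP and 0.989 within KO + LEENE, and between 0.437 and 0.442 for the 4 pairs of libraries across the groups. Both libraries of a group carry the same facility sample number in the file headers, so the P values compare libraries and may hold no spread between mice. Because RNA was measured in bulk, fewer cells of a type and less RNA per cell cannot be told apart in any result that follows.

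The quasi-likelihood test of edgeR was run first with TMM normalization and then by library size only. The TMM factors were 0.661 and 0.714 in KO + GFP against 1.52 and 1.52 in KO + LEENE. Taking TMM away raised the log2 fold changes, KO + LEENE against KO + GFP, by a median of 1.14 over all genes tested. The rise was 1.14 to 1.16 for genes with at least 10 reads in all 4 KO libraries and as low as 0 for genes with few reads. The median over all 8903 genes tested was -0.01 with TMM and 1.07 by library size. A gene was therefore called a differentially expressed gene (DEG) only when its Benjamini-Hochberg adjusted P value was under 0.05 and its sign was the same with both scalings, and every "rose" or "fell" here means such a call. Log2 fold changes are given with TMM as the estimate ± SE, and reads are those of the first and second library, "with GFP" standing for KO + GFP and "with LEENE" for KO + LEENE.

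Of the 8903 genes tested, 5117 (57.5%) were DEGs, of which 2924 (32.8% of genes tested) rose in KO + LEENE and 2193 (24.6%) fell. By TMM alone the share called was 67.8%, with 2924 higher and 3113 lower, and by library size alone 74.8%, with 4467 higher and 2193 lower. A further 177 genes passed both tests with opposite signs and were not called. Among the 2463 genes with at least 10 reads in all 4 libraries, 794 (32.2%) rose, 494 (20.1%) fell and 1175 were not called, so 52.3% were DEGs. The groups did not overlap in CPM for 93.7% of these genes, so a lack of overlap singles out no gene here. The median called fall was -3.33 and the median called rise 1.69 on the log2 scale with TMM, against -2.18 and 2.85 by library size, so which of them was larger depends on the scaling. With TMM 403 genes lay under -2 and 319 over 2. Another 757 genes (30.7%) lay within 0.5 of 0 with TMM. Of the 2924 genes called higher, 13 had 3 reads or fewer in every KO library, and no fold is given for these.

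**Figure D1:**
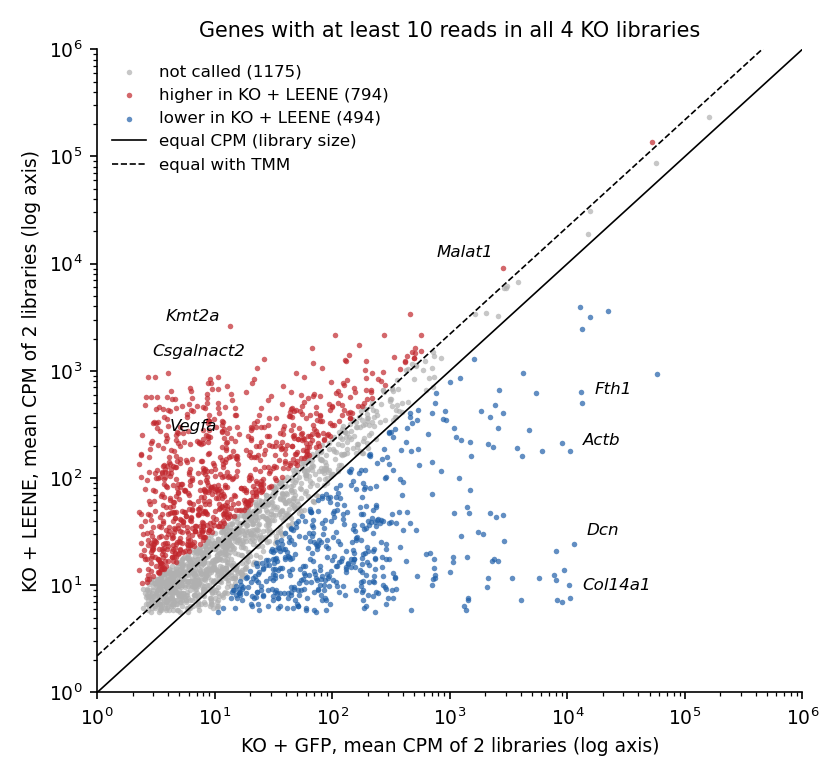
Mean CPM of 2 libraries in KO + GFP (x axis) and KO + LEENE (y axis), both on log axes, for the 2463 genes with at least 10 reads in all 4 KO libraries. The solid line marks equal CPM and the dashed line equal level with TMM. The 794 genes that rose lie mainly at low CPM in KO + GFP, the 494 that fell reach to high CPM there, and the 1175 genes not called form a grey band along the lines.

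**Figure D2:**
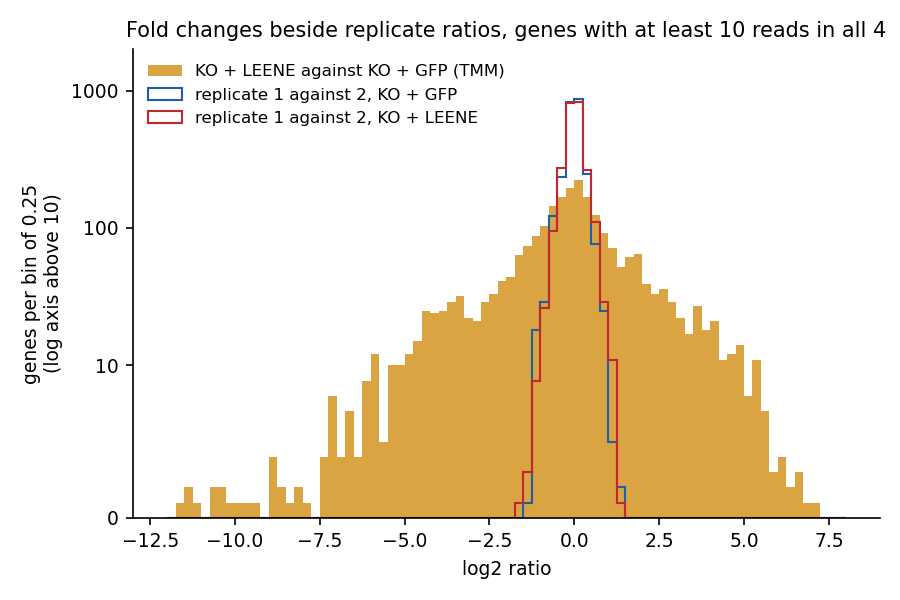
Number of genes by log2 ratio in bins of 0.25, with a log axis above 10. The filled bars give the log2 fold change of KO + LEENE against KO + GFP with TMM, and the outlines give replicate 1 against replicate 2 within each group by CPM. The replicate ratios stay within 1.66 of 0, and the fold changes run from -11.58 to 7.22.

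The genes with the most reads outside the mitochondrial genome included noncoding RNAs with small differences and mRNAs with large falls. Gm12155 (ENSMUSG00000082790, chromosome 11, 44387115 to 44387274, coordinates on GRCm38 here and below), a processed pseudogene and the most abundant, had 291521 and 188880 reads with GFP against 239041 and 242711 with LEENE, and rose by 0.23 ± 0.06. Malat1, a nuclear lncRNA, had 16099 and 10317 reads with GFP against 16155 and 16363 with LEENE and rose by 0.53 ± 0.09 (adjusted P = 5.58e-08, edgeR). Gm26461, annotated as a miscellaneous RNA, had 87332 and 56634 reads with GFP against 55126 and 55678 with LEENE, and Tug1, a nuclear RNA, 9133 and 5946 reads with GFP against 6032 and 6125 with LEENE. Neither was called, at -0.15 ± 0.07 (adjusted P = 0.0537) and -0.09 ± 0.10 (adjusted P = 0.471, edgeR with TMM). The same held for Rn7s6 at -0.13 ± 0.09, Gm22567 at -0.19 ± 0.10 and Gm13340 at -0.12 ± 0.09. By library size these 5 log2 fold changes were 1.00, 1.06, 1.02, 0.96 and 1.03, so they were near 0 with TMM and higher as a share of the library. Mir6236 at -0.78 ± 0.08 and ENSMUSG00000106106 at -0.34 ± 0.09 passed both tests with opposite signs. The first 5 protein-coding genes of the nuclear genome by mean CPM over the 4 KO libraries, a rank set by their level in KO + GFP, all fell. Fth1, the ferritin heavy chain that stores iron, had 74704 and 48265 reads with GFP against 856 and 941 with LEENE (-5.87 ± 0.11). Fn1, encoding fibronectin, went from 73191 and 48033 reads to 1054 and 1207 (-5.52 ± 0.11), Actb, encoding β-actin, from 58995 and 38293 to 298 and 341 (-7.02 ± 0.12), and Dcn and Col14a1 follow below. The libraries of a group differed far less than the groups for each of them. Exons of Malat1, Rn7s6, Tug1, ENSMUSG00000106106 and Fn1 overlap those of another annotated gene, which counting without strand cannot separate.

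The largest falls were read among the genes with at least 10 reads in all 4 libraries. Col14a1 (ENSMUSG00000022371, chromosome 15, 55307750 to 55520803), a collagen that binds to fibrils, had 58829 and 38483 reads with GFP against 15 and 12 with LEENE, a log2 fold change of -11.58 ± 0.16. Dcn (ENSMUSG00000019929, chromosome 10, 97479500 to 97518162), the proteoglycan decorin of fibroblasts, had 63633 and 40842 reads with GFP against 42 and 45 with LEENE (-10.00 ± 0.14). Both were among the most abundant mRNAs of KO + GFP and had at most 45 reads in a KO + LEENE library. Fabp4, a fatty acid carrier of adipocytes and capillary ECs, had 43315 and 27603 reads with GFP against 31 and 13 with LEENE (-10.42 ± 0.16). Abca1, which exports cholesterol from cells, had 52426 and 34436 reads with GFP against 26 and 23 with LEENE (-10.56 ± 0.15). Ucp2, a carrier of the inner mitochondrial membrane, fell with a log2 fold change of -11.13 ± 0.16, and Selenop, the plasma carrier of selenium, with -11.45 ± 0.16. The others were Zfp14, a zinc finger gene (-11.26 ± 0.16), Oip5os1, a lncRNA (-10.62 ± 0.16), and Ywhaz, a 14-3-3 adaptor protein (-10.25 ± 0.17). Each of these 9 had at least 14811 reads in both KO + GFP libraries and at most 45 in either KO + LEENE library. In WT + GFP they had at most 62 reads in a library, with 20 and 26 for Col14a1, 53 and 62 for Dcn and 33 and 20 for Fabp4. Exons of Ucp2 overlap those of another gene.

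The 10 largest rises were read among the same genes. Csgalnact2 (ENSMUSG00000042042, chromosome 6, 118107452 to 118139140), an enzyme that builds chondroitin sulfate chains, had 12 and 12 reads with GFP against 1622 and 1492 with LEENE, a log2 fold change of 7.22 ± 0.14. Kmt2a (ENSMUSG00000002028, chromosome 9, 44803355 to 44881296), a histone H3 lysine methyltransferase, had 82 and 45 reads with GFP against 4832 and 4569 with LEENE (6.43 ± 0.15) and had the most reads of the 10. Ino80, the ATPase of a chromatin remodeling complex, had 21 and 10 reads with GFP against 1012 and 1008 with LEENE (6.23 ± 0.15). Reads in the KO + GFP libraries were few for all 3, and those in KO + LEENE many in both libraries. Rps4x, a protein of the small ribosomal subunit, had 12 and 11 reads with GFP against 957 and 1058 with LEENE (6.65 ± 0.15), and Eif5, which helps ribosomes select the start codon, 13 and 10 reads with GFP against 843 and 855 with LEENE (6.41 ± 0.16). Nup214, of the nuclear pore, rose by 6.05 ± 0.16, Dnajc13, of endosomes, by 6.03 ± 0.14, and Map1a, which binds microtubules, by 6.95 ± 0.14. Zfp648 and Fbrs rose by 6.68 ± 0.13 and 6.54 ± 0.15. In WT + GFP, Csgalnact2 had 984 and 921 reads, Kmt2a 320 and 320 and Eif5 4 and 9. Exons of Map1a, Fbrs, Nup214 and Dnajc13 overlap those of another gene.

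Many genes were read in only 1 of the groups. With at least 100 reads in both libraries of a group and at most 3 in both of the other, 202 genes (2.27% of genes tested) were on in KO + LEENE, 169 of them protein coding, and 275 (3.09%) were on in KO + GFP, 231 of them protein coding. The first took 3.83% and 3.84% of the reads of the KO + LEENE libraries, and the second 5.10% and 5.07% of the reads of the KO + GFP libraries. Because KO + GFP was read more deeply, the 2 numbers are not on 1 scale, and with all libraries thinned to the smallest total they were 326 and 165. Among those on in KO + LEENE, Atp5f1d, a subunit of the ATP synthase, had 2 and 0 reads with GFP against 2304 and 2249 with LEENE (2645-fold higher, 732 to 21849). A group with 3 reads or fewer in both libraries gives the fold of its pooled reads with TMM and, after a comma, the exact 95% interval, which covers counting error only. Where such a group had 0 reads, an "at least" fold against the floor is given, the lower of that with TMM and that by library size. Inhba, which forms activin A, had 3 and 2 reads with GFP against 1377 and 1527 with LEENE (675-fold, 289 to 2080.1), and Hexim1, an inhibitor of transcription elongation, 3 and 1 reads with GFP against 1335 and 1396 with LEENE (793-fold, 309 to 2914). Septin10, of the cytoskeleton (4097-fold higher, 735 to 161873), Snd1, an RNA-binding nuclease (953-fold higher, 326 to 4625), and Tnpo2, a nuclear import receptor (651-fold higher, 254 to 2391), came next. Among those on in KO + GFP, Ccl8, a chemokine for monocytes, had 17570 and 11171 reads with GFP against 3 and 3 with LEENE (4122-fold lower, 1894 to 11234). Pf4, a platelet chemokine, had 16152 and 10677 reads with GFP against 2 and 1 with LEENE (7696-fold, 2633 to 37323), and Nsmce1, of a DNA repair complex, 13255 and 8614 reads with GFP against 0 and 1 with LEENE (18820.5-fold, 3378 to 743404). Next were Cyb5a (5610.0-fold lower, 1919 to 27206), Slc25a24 (5913-fold lower, 1637 to 48832) and Capns1 (2327-fold lower, 997 to 7166). In WT + GFP, 106 of the 202 genes and 119 of the 275 were at 3 reads or fewer in both libraries, while 16 and 25 had at least 100 in both. Exons of Atp5f1d, Tnpo2 and Capns1 overlap those of another gene.

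Gene lists were then read for the functions involved. Of the 38 lists, 27 had at least 10 members tested, and in 26 of these members were called in both directions, the mitochondrially encoded genes being the exception. The lists were set beside 32.8% higher and 24.6% lower over all genes tested, shares at which calls in both directions single out no list. Medians of lists are given with TMM, and by library size too where the sign differs. A list's rises are the same with TMM alone and its falls the same by library size alone, and where the other counts turn the balance of a list counted here, or move its split by over 10 percentage points, they are given in parentheses. No list was tested against other genes.

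**Figure D3:**
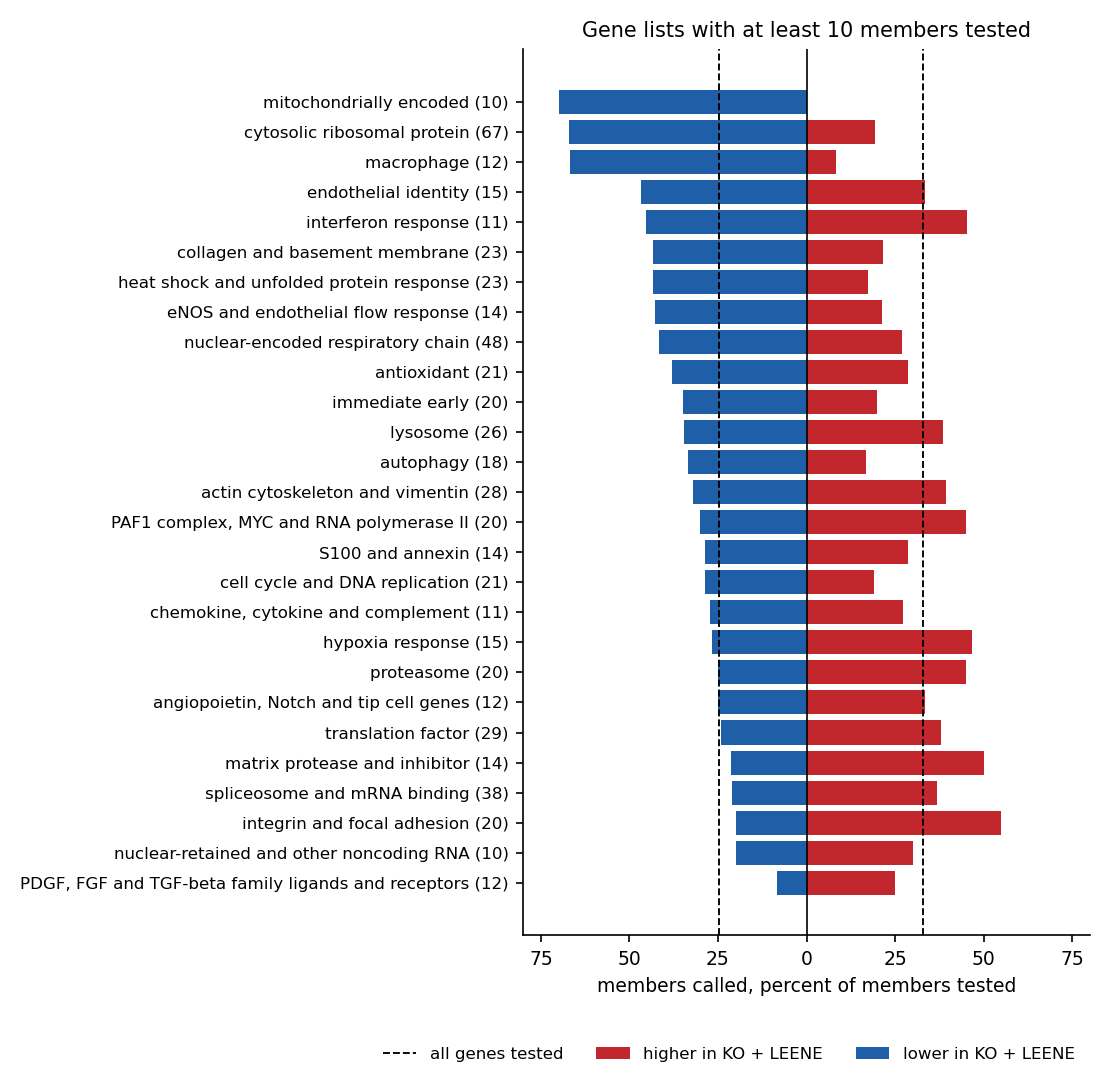
Percent of tested members of each gene list that rose (right) or fell (left) in KO + LEENE, for the 27 lists with at least 10 members tested, with the number tested in parentheses. The dashed lines mark 32.8% and 24.6% over all genes tested. Mitochondrially encoded, cytosolic ribosomal protein and macrophage genes have the longest bars to the left, and integrin and focal adhesion genes the longest to the right.

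EC identity genes were called in both directions. Of 26 matched, 15 were tested, 5 rose and 7 fell, with a median log2 fold change of -2.07. Of the 4 with at least 10 reads in all 4 libraries, 2 rose and 1 fell, with a median of 0.84. Emcn, endomucin of capillary and venous ECs, had 12245 and 8648 reads with GFP against 8 and 7 with LEENE (-10.21 ± 0.19). Tie1, a receptor tyrosine kinase of ECs, had 588 and 366 reads with GFP against 5 and 8 with LEENE (-5.95 ± 0.22), and Robo4, a guidance receptor of ECs, 1586 and 950 reads with GFP against 80 and 61 with LEENE (-3.94 ± 0.11). Cdh5, which encodes the CD144 used for the beads, fell from 322 and 196 to 5 and 18 reads (-4.26 ± 0.22), and Erg, an EC transcription factor, from 149 and 70 to 8 and 4 (-3.94 ± 0.31). These 5 genes had at most 80 reads in a KO + LEENE library. In contrast, Vwf, the clotting factor stored by ECs, had 158 and 92 reads with GFP against 317 and 340 with LEENE (1.61 ± 0.12). S1pr1, a receptor that stabilizes vessels, had 39 and 32 reads with GFP against 205 and 237 with LEENE (2.85 ± 0.18), and Podxl, a sialomucin of the luminal surface, 12 and 4 reads with GFP against 216 and 192 with LEENE (4.87 ± 0.25). Sox18 rose by 3.92 ± 0.51 on few reads and Pecam1, at 0.06 ± 0.16, was not called (adjusted P = 0.776, edgeR with TMM). The summed level of the list was 2761 and 2924 CPM in KO + GFP against 588 and 592 CPM in KO + LEENE, of which Emcn made up most in KO + GFP. The other 11 members were not tested for want of reads. Among them Tek, Plvap, Clec14a and Ly6c1, markers of ECs or their subsets, had at most 5 reads in any KO library. Of the 26 members, 12 had at least 10 reads in both KO + GFP libraries and 7 in both KO + LEENE libraries, which were read less deeply. Over all genes, 5846 and 4791 reached 10 reads in KO + GFP against 4574 and 4640 in KO + LEENE. With libraries thinned to the smallest total these were 3454 and 3382 against 4574 and 4607, and the members of the list were not recounted so.

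VEGF genes are ligands, receptors and co-receptors. Among the ligands, Vegfa had 23 and 19 reads with GFP against 799 and 788 with LEENE (5.45 ± 0.15), Vegfb 5 and 6 reads with GFP against 138 and 155 with LEENE (4.92 ± 0.28) and Pgf, the placental growth factor, 242 and 176 reads with GFP against 246 and 294 with LEENE (0.58 ± 0.11), so all 3 rose. Pgf lies near the shift between the scalings, and by library size its log2 fold change was 1.74. Vegfc, at -0.60 ± 0.44 with TMM, was not called. Of the receptors, Kdr (VEGFR2) rose by 2.20 ± 0.32 from 13 and 9 reads to 47 and 41, and Flt1 (VEGFR1), with 7 and 3 reads with GFP against 5 and 5 with LEENE, was not called. Both co-receptors fell: Nrp1 had 2769 and 1959 reads with GFP against 9 and 4 with LEENE (-8.27 ± 0.19), and Nrp2 977 and 720 reads with GFP against 11 and 11 with LEENE (-6.04 ± 0.17). The neuropilins were the most abundant members of the list in KO + GFP and had at most 11 reads in a KO + LEENE library, where Vegfa was the most abundant. In all, 4 of 8 tested members rose and 2 fell, with a median of 0.40, and of the 4 counted in all 4 libraries 2 rose and 1 fell, with a median of -0.0064 with TMM and 1.14 by library size. Exons of Nrp1 overlap those of another gene.

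Sprouting and vessel-stabilizing genes were tested next. Of 12 angiopoietin, Notch and tip cell genes tested, 4 rose and 3 fell (5 fell with TMM alone and 7 rose by library size alone), with a median of 0.95, and of the 3 counted in all 4 libraries 1 rose and 0 fell, with a median of -0.78 with TMM and 0.37 by library size. Apln, the ligand apelin of tip cells, had 21 and 7 reads with GFP against 491 and 428 with LEENE (5.24 ± 0.18), and Plxnd1, a semaphorin receptor of ECs, 28 and 21 reads with GFP against 465 and 468 with LEENE (4.46 ± 0.16). Notch1 had 9 and 7 reads with GFP against 29 and 34 with LEENE and rose, as did the Notch target Hey1 (3.23 ± 0.49), whereas Hes1, another Notch target, had 81 and 57 reads with GFP against 9 and 17 with LEENE and fell. Among ligands of Tie2, Angpt1, which quiets vessels, fell from 25 and 24 to 0 and 3 reads (14.1-fold, 4.54 to 70.5) while Angpt2 was not called at -0.78 ± 0.14. Of 12 PDGF, FGF and TGF-β family genes tested, 3 rose and 1 fell (4 fell with TMM alone and 8 rose by library size alone), while the 6 counted in all 4 libraries were not called. Bmp6, a BMP ligand made by ECs, had 6 and 2 reads with GFP against 432 and 417 with LEENE (6.91 ± 0.23). Pdgfb, which recruits pericytes, went from 1 and 3 to 25 and 23 reads (13.9-fold higher, 5.11 to 53.2), and Bmp4 from 59 and 31 to 2 and 1 (25.8-fold lower, 8.56 to 128). The receptors read at moderate levels, Pdgfra at -0.48 ± 0.18, Tgfbr2 at -0.29 ± 0.20 and Acvrl1 at 0.41 ± 0.32, were not called. Exons of Notch1, Angpt1, Bmp4, Pdgfra and Acvrl1 overlap those of another gene.

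Among 14 tested genes of eNOS and the response to flow, 3 rose and 6 fell. Nos3, encoding eNOS, had 6 and 8 reads with GFP against 5 and 2 with LEENE and was not called (-0.77 ± 0.70, adjusted P = 0.337, edgeR with TMM), which at this depth does not show that it was unchanged. Edn1, the vasoconstrictor endothelin 1, had 449 and 306 reads with GFP against 1872 and 1950 with LEENE (2.56 ± 0.12). The chaperones of eNOS moved apart, with Hsp90ab1 going from 24 and 11 to 767 and 811 reads (5.70 ± 0.14) and Hsp90aa1 from 221 and 129 to 42 and 44 (-1.80 ± 0.17). Cav1, the caveolin that binds eNOS, had 1066 and 643 reads with GFP against 42 and 28 with LEENE (-4.38 ± 0.13), and Klf4, a flow-induced transcription factor, 630 and 389 reads with GFP against 5 and 1 with LEENE (-7.14 ± 0.24). Ddah1 and Ddah2, which degrade an inhibitor of eNOS, both fell, Ddah1 with -5.97 ± 0.34 and Ddah2 from 219 and 125 to 1 and 1 reads (148-fold, 40.7 to 1227). Klf2, with at most 8 reads in any KO library, was not tested. Exons of Nos3 overlap those of another gene.

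**Figure D4:**
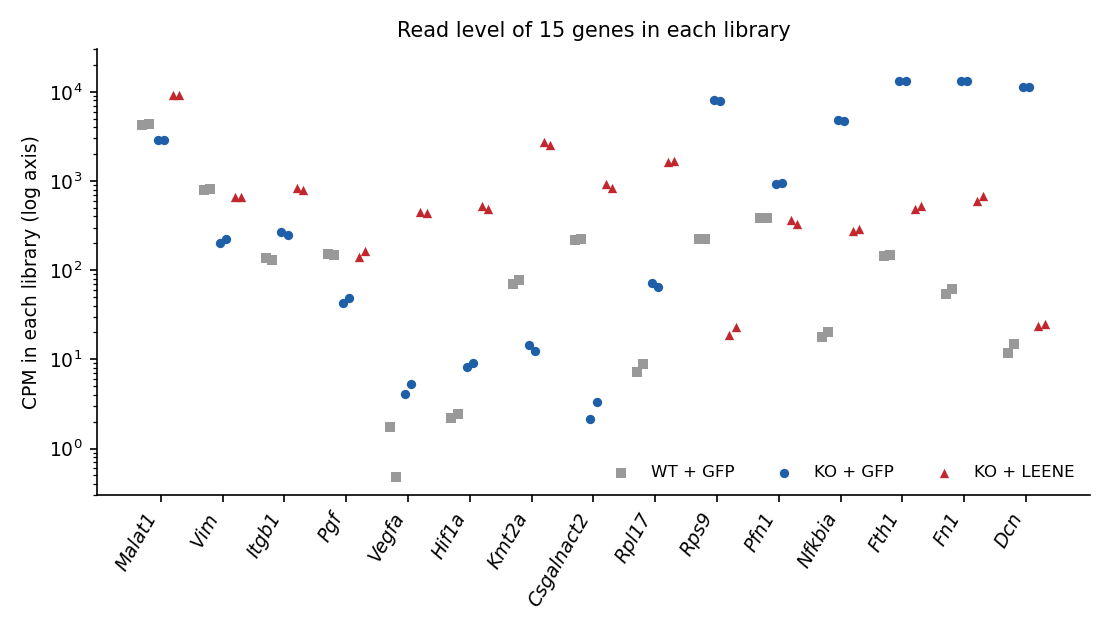
CPM of 15 named genes in each library on a log axis, with WT + GFP as grey squares, KO + GFP as blue circles and KO + LEENE as red triangles. Both libraries of a KO group lie close together for each gene. Malat1, Vim, Itgb1, Pgf, Vegfa, Hif1a, Kmt2a, Csgalnact2 and Rpl17 have the red triangles above the blue circles, and the other 6 genes below them.

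Markers of other cells of ischemic muscle also differed. Of 12 macrophage genes tested, 8 fell and 1 rose. No member had at least 10 reads in all 4 libraries, so no fold here is of a gene well counted in both groups. Of all 24 matched members, 20 were at 3 reads or fewer in both KO + LEENE libraries against 12 in KO + GFP. Over all genes tested these numbers were 2104 and 2037, and 3 reads are a higher CPM in KO + LEENE. The median of the macrophage genes tested was -5.05 and, with groups at 3 reads or fewer set to 3 reads, -1.88. Mrc1, the mannose receptor CD206, had 1897 and 1217 reads with GFP against 17 and 9 with LEENE (-6.67 ± 0.14). Adgre1 (F4/80) had 1823 and 1060 reads with GFP against 3 and 1 with LEENE (620.3-fold lower, 242 to 2278), and Lyz2, a lysozyme of myeloid cells, had 853 and 550 reads with GFP against 1 and 2 with LEENE (402-fold lower, 137 to 1954). Ctss, a lysosomal protease of myeloid cells, had 415 and 275 reads with GFP against 1 and 0 with LEENE (594-fold lower, 106 to 23488), and Fcgr1, an antibody receptor, 143 and 91 reads with GFP against 5 and 7 with LEENE (-4.04 ± 0.32). All of these were low in both KO + LEENE libraries. Mertk, a receptor for dying cells, went the other way, from 0 and 1 to 26 and 27 reads (61.6-fold higher, 10.6 to 2478). The defining markers Itgam and Csf1r were not tested, and Itgam had 0 reads in all 4 libraries. The summed level of the list was 939 and 904 CPM in KO + GFP against 39.5 and 35.2 CPM in KO + LEENE. Whether the share of macrophages in the fraction differed was not tested.

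Fibroblast genes fell in 6 of 9 tested, with 1 higher (7 fell with TMM alone and 2 rose by library size alone). Dcn is described above, and Col3a1 and Col1a2, of the fibrillar collagens, had 19017 and 12139 reads with GFP against 17 and 25 with LEENE (-9.30 ± 0.17) and 6491 and 4345 reads with GFP against 12 and 5 with LEENE (-9.08 ± 0.19). Col1a1, whose product pairs with that of Col1a2, had only 56 and 34 reads with GFP against 9 and 7 with LEENE (-2.26 ± 0.37), and Mfap5, of elastic fibers, rose by 4.27 ± 0.38. The summed level went from 15955 and 15862 CPM to 129 and 130 CPM, and Dcn, Col3a1 and Col1a2 made up nearly all of it in KO + GFP. Of 8 contractile genes tested, 5 fell and 1 rose (6 fell with TMM alone and 3 rose by library size alone). Tpm1, a tropomyosin, had 23431 and 15031 reads with GFP against 1685 and 1687 with LEENE (-3.28 ± 0.11), Myh4, the fast myosin of muscle fibers, 102 and 65 reads with GFP against 1 and 0 with LEENE (144-fold lower, 25.4 to 5710.2), and Acta1, the actin of muscle fibers, 7 and 2 reads with GFP against 53 and 43 with LEENE (3.60 ± 0.41). Among 3 mural genes tested, Mylk, a myosin kinase, fell (-6.18 ± 0.25), while Rgs5, a pericyte marker, rose (2.42 ± 0.31) and Myh11, a smooth muscle myosin, rose from 1 and 3 to 9 and 13 reads (6.39-fold, 2.17 to 25.5). No mural gene had at least 10 reads in all 4 libraries. Of the satellite cell genes Vcam1 rose by 0.32 ± 0.09 and Pax7, the stem cell factor of muscle, went from 2 and 1 to 5 and 7 reads (4.65-fold higher, 1.25 to 25.7). Of the red cell and platelet genes Hba-a1, an α-globin, fell from 6688 and 4489 to 1557 and 1490 reads (-1.65 ± 0.11), next to Pf4 above and Alas2. Of other leukocyte genes Kit rose by 3.23 ± 0.44, Ms4a1 was called higher with at most 3 reads in a library, and Ptprc (CD45), with 18 and 19 reads with GFP against 4 and 5 with LEENE, was not called. Among adipocyte and Schwann cell genes, Fabp4 and Cnp fell while Plin1 and Lep were not called. In the macrophage, fibroblast, mural and contractile lists members were called in both directions. Hba-a1 has a near-identical copy, Hba-a2, that was not called (-1.15 ± 0.29), so its reads are uncertain. Exons of Col3a1, Vcam1, Alas2 and Cnp overlap those of another gene.

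Matrix genes took a smaller share of the reads in KO + LEENE. Of 23 collagen and basement membrane genes tested, 10 fell and 5 rose (14 fell with TMM alone and 11 rose by library size alone), with a median of -0.97 with TMM and 0.18 by library size. Of the 11 counted in all 4 libraries 4 fell and 1 rose, with a median of -0.76 with TMM and 0.39 by library size. The summed level was 29893 and 30161 CPM in KO + GFP against 2418 and 2416 CPM in KO + LEENE, and Col14a1, Fn1 and Col3a1 made up most of it in KO + GFP. Besides Col14a1, Fn1 and Col3a1, Col5a2, of a minor fibrillar collagen, fell from 4577 and 2994 to 6 and 7 reads (-8.94 ± 0.19). Col4a1 and Col4a2, whose products form 1 basement membrane trimer from neighboring genes, went apart, with 1569 and 984 reads with GFP against 337 and 323 with LEENE for Col4a1 (-1.73 ± 0.08) and 27 and 9 reads with GFP against 123 and 141 with LEENE for Col4a2 (3.09 ± 0.24). Col12a1, a collagen that binds to fibrils like that of Col14a1, had 390 and 252 reads with GFP against 1106 and 1051 with LEENE (1.97 ± 0.08). Col6a2 and Col5a1 rose by 5.78 ± 0.34 and 4.22 ± 0.37. The basement membrane genes Lamb1, Hspg2 and Lama4 were not called, at -0.76 ± 0.09, -0.70 ± 0.11 and -0.18 ± 0.20. Exons of Fn1, Col3a1, Col4a1, Col4a2 and Col5a1 overlap those of another gene.

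Of 14 matrix protease and inhibitor genes tested, 7 rose and 3 fell (5 fell with TMM alone and 7 rose by library size alone), and the 3 were Timp1, Serpinh1 and the protease gene Adamts5 (-2.06 ± 0.36). Plau, the plasminogen activator urokinase, had 103 and 45 reads with GFP against 543 and 526 with LEENE (3.07 ± 0.12). Mmp2, a gelatinase, had 10 and 7 reads with GFP against 297 and 254 with LEENE (5.22 ± 0.23). Timp1, an inhibitor of such enzymes, went from 180 and 109 to 0 and 1 reads (249-fold lower, 44.3 to 9857). Serpinh1, a chaperone of collagen, fell from 115 and 79 to 1 and 0 reads (167-fold, 29.6 to 6628). Mmp9, another gelatinase, with at most 7 reads per library, was not tested, and Mmp12 was one of the 7 that rose, with no more than 3 reads in a library.

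Of the 27 lists with at least 10 members tested, adhesion genes had the largest share that rose. Of 20 integrin and focal adhesion genes tested, 11 rose and 4 fell, with a median of 1.30. Of the 11 with at least 10 reads in all 4 libraries, 7 rose and 3 fell, beside 32.2% and 20.1% of all such genes. Itgb1, the shared β1 chain, had 1502 and 907 reads with GFP against 1467 and 1423 with LEENE (0.49 ± 0.09), and Itgav and Itga5, chains of the vitronectin and fibronectin receptors, 36 and 21 reads with GFP against 394 and 352 with LEENE (3.92 ± 0.16) and 34 and 35 reads with GFP against 236 and 273 with LEENE (3.09 ± 0.18). The linkers of integrins to actin Vcl, Tln1 and Actn4 rose by 6.33 ± 0.23, 2.56 ± 0.28 and 2.01 ± 0.09. Ptk2, the focal adhesion kinase FAK, fell from 1290 and 834 to 66 and 73 reads (-3.71 ± 0.11) and Fermt2, kindlin 2, fell as well (-3.27 ± 0.10). Flna, a filamin that cross-links actin, fell too, with 2071 and 1386 reads with GFP against 48 and 33 with LEENE (-5.19 ± 0.11). Exons of Itgav, Vcl, Tln1 and Actn4 overlap those of another gene.

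The actin cytoskeleton held 11 rises and 9 falls in 28 genes tested (13 fell with TMM alone and 15 rose by library size alone), and 8 and 10 without KO + GFP replicate 2 or 9 and 10 without either KO + LEENE library. Actb fell, as above, whereas Actg1, the other cytoplasmic actin, rose from 9 and 8 to 90 and 94 reads (3.63 ± 0.30). Myl6, a myosin light chain, had 16524 and 10333 reads with GFP against 54 and 39 with LEENE (-7.94 ± 0.15), Cfl1, which severs filaments, 1187 and 781 reads with GFP against 5 and 4 with LEENE (-7.52 ± 0.19), and Pfn1, which binds actin monomers, 5136 and 3418 reads with GFP against 641 and 588 with LEENE (-2.58 ± 0.11). Vim, the intermediate filament vimentin, had 1135 and 807 reads with GFP against 1181 and 1177 with LEENE (0.49 ± 0.11), and Tmsb4x, thymosin β4, 1599 and 988 reads with GFP against 1271 and 1346 with LEENE (0.25 ± 0.10). Of 14 S100 and annexin genes tested, 4 rose and 4 fell. S100a6 fell from 15961 and 10286 to 742 and 705 reads (-3.95 ± 0.12), S100a13 from 3764 and 2395 to 2 and 1 (1767-fold, 604 to 8569.8), and Ahnak, a scaffold that binds annexin 2, from 22599 and 14945 to 296 and 274 (-5.82 ± 0.13). Anxa2, annexin 2, rose from 7 and 2 to 756 and 914 reads (7.72 ± 0.19), while its partner S100a10 fell (-3.49 ± 0.31). S100a4, a marker of fibroblasts, had 0 reads in all 4 libraries, and Acta2, the smooth muscle actin, had at most 3. Exons of Actg1 and Anxa2 overlap those of another gene, and actin genes have pseudogene copies whose reads unique alignment may split.

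Cytosolic ribosomal protein genes had the most members tested of all lists. Of 67 tested, 45 fell and 13 rose, and of the 40 counted in all 4 libraries 25 fell and 10 rose, beside 20.1% and 32.2% of all such genes. The median was -3.03, or -2.75 with groups at 3 reads or fewer set to 3 reads, and -1.88 by library size. Proteins of the large subunit fell in 27 of 37 and rose in 7, and those of the small subunit fell in 18 of 30 and rose in 6. Rps9 had 45483 and 28843 reads with GFP against 33 and 41 with LEENE (-9.74 ± 0.15) and Rpl37 16781 and 10672 reads with GFP against 9 and 6 with LEENE (-10.59 ± 0.18). Rpl17, in contrast, had 400 and 233 reads with GFP against 2864 and 2985 with LEENE (3.44 ± 0.11), Rps15 355 and 243 reads with GFP against 714 and 663 with LEENE (1.42 ± 0.09), and Rps4x was among the largest rises. The summed level was 27913 and 27582 CPM in KO + GFP against 5238 and 5337 CPM in KO + LEENE, and 6767 and 6894 CPM in WT + GFP. Ribosomal protein genes have many pseudogene copies, so unique alignment may count them in part.

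Translation factors were called at shares near those of all genes tested. Of 29 tested, 11 (37.9%) rose and 7 (24.1%) fell (13 fell with TMM alone and 14 rose by library size alone), with a median of -0.64 with TMM and 0.48 by library size, and of the 12 counted in all 4 libraries 7 rose and 2 fell, with a median of 0.98. Eif5b, which joins the ribosomal subunits, had 50 and 28 reads with GFP against 810 and 779 with LEENE (4.56 ± 0.13), Eif4g1, the scaffold of cap binding, 18 and 18 reads with GFP against 260 and 306 with LEENE (4.18 ± 0.18), and Eif4a2, a helicase, 14 and 19 reads with GFP against 366 and 420 with LEENE (4.78 ± 0.18). Eef1a1, the elongation factor that carries tRNA, rose by only 0.46 ± 0.10. Eif1, a factor of start codon selection like Eif5, fell from 2440 and 1634 to 6 and 4 reads (-8.42 ± 0.16). The 11 subunits of eIF3, which act as 1 complex, were split into 3 that rose (Eif3f, Eif3g and Eif3m), 4 that fell (Eif3a, Eif3b, Eif3c and Eif3k) and 4 not called. Eif3g had 7 and 3 reads with GFP against 393 and 385 with LEENE (6.47 ± 0.23), and Eif3k 885 and 606 reads with GFP against 3 and 1 with LEENE (321-fold lower, 125 to 1179). Exons of Eif5b, Eif4a2, Eef1a1 and Eif3m overlap those of another gene.

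Chaperones of the heat shock and unfolded protein responses fell in 10 of 23 tested and rose in 4 (13 fell with TMM alone and 7 rose by library size alone), with a median of -1.67. Hspa5, the chaperone BiP of the endoplasmic reticulum, had 1588 and 1053 reads with GFP against 37 and 40 with LEENE (-4.88 ± 0.12). Hsp90b1, its partner there, fell (-5.90 ± 0.19), as did Hspd1, of mitochondria (-3.43 ± 0.15). Hspe1, which caps the chamber formed by Hspd1, rose (0.40 ± 0.13). Canx, calnexin, rose from 12 and 3 to 637 and 696 reads (6.67 ± 0.18), and Calr, the related calreticulin, was not called at -1.67 ± 0.26. Exons of Hsp90b1, Hspd1 and Hspe1 overlap those of another gene.

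**Figure D5:**
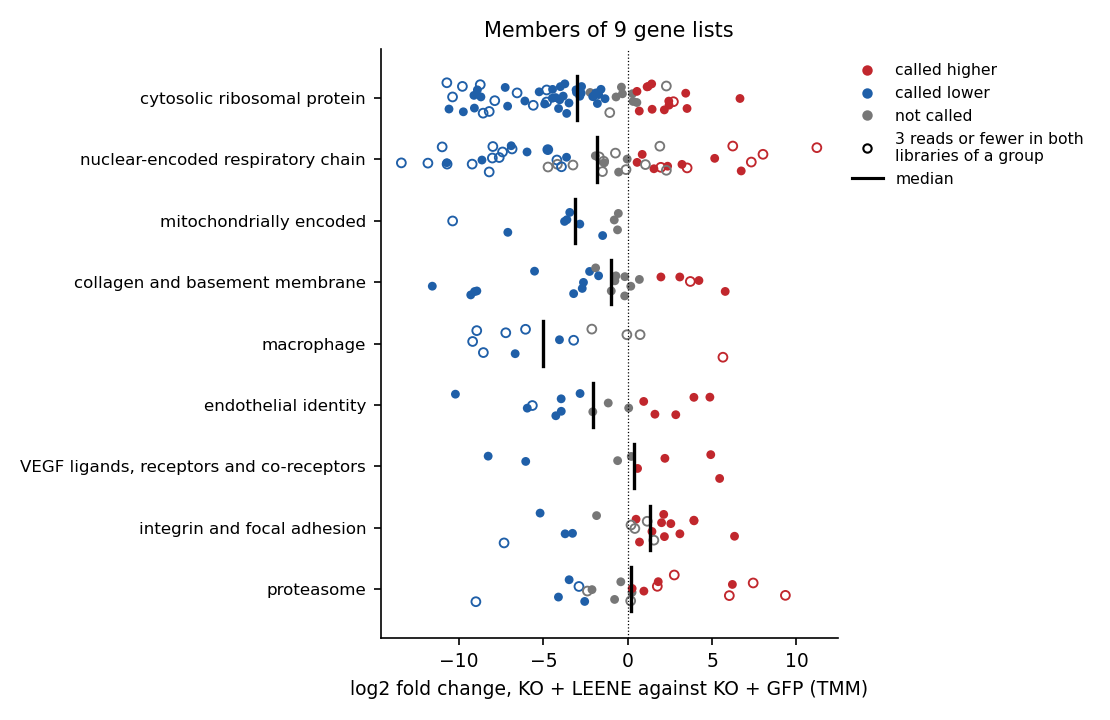
Log2 fold change with TMM of each tested member of 9 gene lists, red for members that rose, blue for members that fell and grey for those not called. Open circles mark members with 3 reads or fewer in both libraries of a group, whose estimate is no measured fold, and black bars mark medians. Medians run from -5.05 in macrophage genes to 1.30 in integrin and focal adhesion genes, and 8 of the 9 lists hold both red and blue points.

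Mitochondrial reads kept their share and changed in makeup. Genes of the mitochondrial genome took 34.2% and 34.3% of reads in KO + GFP against 33.7% and 33.6% in KO + LEENE. Within them, the ribosomal RNAs mt-Rnr1 and mt-Rnr2 made up 63.0% and 63.0% in KO + GFP against 94.4% and 94.3% in KO + LEENE, against 68.9% and 68.8% in WT + GFP. The rRNAs were not called, at -0.56 ± 0.06 for mt-Rnr1 and -0.60 ± 0.05 for mt-Rnr2, since by library size the signs turned. Most of the mRNAs tested fell. mt-Nd2, of complex I, had 324923 and 212275 reads with GFP against 1622 and 1720 with LEENE (-7.10 ± 0.08), and mt-Co1, of complex IV, 86976 and 55912 reads with GFP against 5567 and 5731 with LEENE (-3.43 ± 0.09). mt-Nd5, mt-Nd1, mt-Cytb and mt-Nd4 fell with log2 fold changes of -3.74 ± 0.08, -3.60 ± 0.09, -2.84 ± 0.09 and -1.48 ± 0.09, and mt-Nd3 went from 2056 and 1355 to 1 and 1 reads (1468-fold lower, 406 to 12125). mt-Nd6, the mRNA made from the other strand, had 14101 and 9336 reads with GFP against 5641 and 5914 with LEENE and was not called (-0.80 ± 0.09). In all 7 of 10 tested members fell and 0 rose (10 fell with TMM alone and 3 rose by library size alone), and the falls differed in size although these RNAs are cut from shared transcripts. The other 5 of the 15 matched members were not tested, and 4 members had 3 reads or fewer in every KO library. Exons of mt-Nd2, mt-Nd5, mt-Nd1, mt-Co1, mt-Nd4 and mt-Nd6 overlap those of another gene.

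The nuclear-encoded partners of these proteins went both ways. Of 48 tested respiratory chain genes, 20 fell and 13 rose, with a median of -1.80, or -0.63 with groups at 3 reads or fewer set to 3 reads. Of the 8 counted in all 4 libraries 4 rose and 3 fell, with a median of 0.0093. Complex I had 8 falls and 5 rises in 19 genes, complex III 2 falls and 2 rises in 6, complex IV 4 falls and 1 rise in 7, and the ATP synthase 6 falls and 4 rises in 13. In complex I, Ndufb9 had 4671 and 2982 reads with GFP against 1 and 2 with LEENE (2195-fold lower, 751 to 10648). In complex III, Uqcrh had 14711 and 9419 reads with GFP against 7 and 5 with LEENE (-10.72 ± 0.19), and Uqcrc2 3 and 1 reads with GFP against 479 and 465 with LEENE (274-fold higher, 107 to 1009). In complex IV, Cox8a had 6685 and 4330 reads with GFP against 194 and 159 with LEENE (-4.74 ± 0.13), and Cox4i1 3 and 2 reads with GFP against 340 and 382 with LEENE (168-fold higher, 71.6 to 518). In the ATP synthase, Atp5mj had 1583 and 1005 reads with GFP against 0 and 0 with LEENE (at least 166-fold lower), and Atp5mc1 6 and 1 reads with GFP against 327 and 332 with LEENE (6.73 ± 0.26). In complex II, Sdhc rose (0.56 ± 0.11) and the other two tested were not called. Of 12 complexes grouped after their values were seen, 10 had subunits called in both directions. Over all genes tested 32.8% were higher and 24.6% lower, so calls in both directions set no complex apart. Exons of Uqcrc2 and Cox4i1 overlap those of another gene.

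Genes of fuel use and redox control were also called in both directions. Of 8 glycolytic genes tested, 5 fell and 2 rose, and none had at least 10 reads in all 4 libraries. Pkm, pyruvate kinase, had 2554 and 1705 reads with GFP against 3 and 0 with LEENE (1222-fold lower, 418 to 5927), and Pfkl, phosphofructokinase, 142 and 65 reads with GFP against 0 and 1 with LEENE (178-fold lower, 31.6 to 7069.9). Gpi1, the isomerase of the second step, and Aldoa, aldolase, went the other way, with 3 and 2 reads with GFP against 106 and 153 with LEENE for Gpi1 (60.2-fold higher, 25.5 to 187) and 6 and 2 reads with GFP against 147 and 148 with LEENE for Aldoa (5.38 ± 0.32). Of 8 fatty acid genes tested (5 fell with TMM alone and 1 rose by library size alone), Fabp4 and Cpt1a, the entry step of fatty acids into mitochondria (623-fold lower, 172 to 5146), fell, Hadhb rose by 2.24 ± 0.39, and Cd36 and Fabp5, with 34 and 15 reads with GFP against 12 and 6 with LEENE and 27 and 18 reads with GFP against 10 and 6 with LEENE, were not called. Of 21 antioxidant genes tested, 8 fell and 6 rose (9 fell with TMM alone and 9 rose by library size alone). Prdx1, a peroxiredoxin, had 6315 and 4035 reads with GFP against 0 and 0 with LEENE (at least 665-fold lower), Ftl1, the ferritin light chain, 6734 and 4452 reads with GFP against 0 and 1 with LEENE (9627-fold lower, 1727 to 380268), and Cat, catalase, 103 and 58 reads with GFP against 0 and 0 with LEENE (at least 10.2-fold lower). Nfe2l2, encoding the transcription factor NRF2 that induces many of them, rose from 13 and 5 to 1098 and 1172 reads (7.18 ± 0.16), and Txnrd1, thioredoxin reductase, from 14 and 9 to 677 and 686 (6.09 ± 0.17). Exons of Gpi1, Aldoa and Ftl1 overlap those of another gene.

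The hypoxia response held 7 rises and 4 falls in 15 genes tested. Hif1a, the oxygen-regulated factor HIF-1α, had 46 and 33 reads with GFP against 930 and 870 with LEENE (4.72 ± 0.13), whereas Epas1, the related HIF-2α, had 174 and 92 reads with GFP against 0 and 2 with LEENE (114-fold lower, 31.4 to 950.0), and their partner Arnt fell (-3.84 ± 0.42). Adm, the vasodilator adrenomedullin, had 3 and 1 reads with GFP against 174 and 182 with LEENE (103-fold higher, 40.0 to 382). Of the genes that destroy HIF, Egln2 went from 1 and 0 to 426 and 408 reads (969-fold higher, 173 to 38322) and Vhl from 1 and 1 to 70 and 79 (86.6-fold higher, 23.5 to 721). Higd1a, a hypoxia-induced mitochondrial protein, had 1581 and 1047 reads with GFP against 2 and 0 with LEENE (1131-fold lower, 313 to 9343). The summed level of the list was 388 and 386 CPM in KO + GFP against 1032 and 980 CPM in KO + LEENE, in which Hif1a and Egln2 made up most. Exons of Hif1a and Egln2 overlap those of another gene.

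Immune response genes were split as well. Of 11 interferon response genes tested, 5 fell and 5 rose. None of them, nor any antigen presentation gene of the lists, had at least 10 reads in all 4 libraries. Ifitm3, a barrier to virus entry, had 2592 and 1520 reads with GFP against 1 and 0 with LEENE (3539-fold lower, 635 to 139808) and Ifi44 353 and 256 reads with GFP against 1 and 1 with LEENE (262-fold lower, 72.2 to 2169). The rises were on few reads, such as Rigi, a sensor of viral RNA, with 17 and 8 reads with GFP against 26 and 23 with LEENE (1.18 ± 0.38). Of the class I antigen genes, B2m, the shared light chain, had 6412 and 4161 reads with GFP against 4 and 3 with LEENE (-10.29 ± 0.21), H2-D1, a heavy chain, 1108 and 684 reads with GFP against 1 and 0 with LEENE (1542-fold lower, 276 to 60947), and Tapbp, which loads peptides, 1 and 0 reads with GFP against 246 and 244 with LEENE (569-fold higher, 102 to 22534). Of 11 chemokine, cytokine and complement genes tested, 3 rose and 3 fell (4 fell with TMM alone and 7 rose by library size alone). Cxcl2, a chemokine for neutrophils, had 667 and 456 reads with GFP against 1383 and 1354 with LEENE (1.50 ± 0.08), Ccl2, for monocytes, 12 and 9 reads with GFP against 38 and 42 with LEENE (2.13 ± 0.35), and Cxcl12, a chemokine of stromal cells, 888 and 573 reads with GFP against 3 and 5 with LEENE (-7.25 ± 0.21). Exons of Tapbp overlap those of another gene.

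Immediate early genes, which are also induced when tissue is digested, fell in 7 of 20 tested and rose in 4 (12 fell with TMM alone and 11 rose by library size alone). Fos had 4207 and 2674 reads with GFP against 21 and 21 with LEENE (-7.12 ± 0.15), Dusp1, a phosphatase of MAP kinases, 5853 and 3914 reads with GFP against 35 and 23 with LEENE (-7.17 ± 0.16), and Nfkbia, the inhibitor of NF-κB, 26944 and 17073 reads with GFP against 493 and 514 with LEENE (-5.22 ± 0.12). Jun, the partner of Fos, had 4718 and 2999 reads with GFP against 2322 and 2388 with LEENE and was not called (-0.48 ± 0.11), nor were Egr1 (-0.28 ± 0.08) and Klf6 (-0.36 ± 0.11). Ier3 rose by 3.45 ± 0.17, Btg2 by 5.12 ± 0.26 and Maff from 0 and 2 to 96 and 88 reads (107-fold, 29.2 to 889). Large falls thus stood beside abundant members within 0.5 of 0 with TMM. Exons of Jun overlap those of another gene.

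Genes of transcription, splicing and protein turnover followed. Of 20 genes of the PAF1 complex, MYC and RNA polymerase II tested, 9 rose and 6 fell. Paf1 had 17 and 15 reads with GFP against 194 and 199 with LEENE (3.82 ± 0.22), Ctr9 17 and 13 reads with GFP against 32 and 30 with LEENE (1.26 ± 0.34), and Rtf1 and Cdc73 were not called (-0.82 ± 0.25 and -0.53 ± 0.20). Leo1, with at most 2 reads in any KO library, was not tested. Myc had 104 and 74 reads with GFP against 1 and 0 with LEENE (153-fold lower, 27.1 to 6084). Polr2b, the second largest subunit of the polymerase, had 21 and 15 reads with GFP against 991 and 1021 with LEENE (6.01 ± 0.14), and the largest, Polr2a, was not called (-0.93 ± 0.18). Of 38 splicing and mRNA-binding genes tested, 14 rose and 8 fell. Sf3b1, which selects branch points, had 154 and 91 reads with GFP against 2377 and 2259 with LEENE (4.47 ± 0.12), Srsf5, a splicing regulator, 9 and 5 reads with GFP against 504 and 550 with LEENE (6.43 ± 0.20), and Hnrnpk, an RNA-binding protein, 4174 and 2597 reads with GFP against 27 and 25 with LEENE (-6.79 ± 0.14). Among RNA helicases, Ddx5 went from 2998 and 1918 to 321 and 341 reads (-2.67 ± 0.10) and its close relative Ddx17 from 519 and 368 to 1391 and 1417 (1.88 ± 0.10), so the first fell and the second rose. The related Pcbp1 and Pcbp2 also moved apart, with 4689 and 3048 reads with GFP against 0 and 5 with LEENE for Pcbp1 (-10.31 ± 0.21) and 4 and 5 reads with GFP against 23 and 25 with LEENE for Pcbp2 (2.60 ± 0.48). Ktn1, a kinectin of the endoplasmic reticulum, had 749 and 550 reads with GFP against 1006 and 1035 with LEENE and rose (0.86 ± 0.07). Pabpc1, the poly(A)-binding protein, with 3367 and 2244 reads with GFP against 2152 and 2214 with LEENE, was not called (-0.14 ± 0.11). Exons of Cdc73, Polr2b, Hnrnpk, Ddx5, Ddx17, Pcbp1 and Pcbp2 overlap those of another gene.

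Of 20 proteasome genes tested, 9 rose and 5 fell. In the regulatory particle 6 of 13 rose and 5 fell, with Psmc5 at 6.20 ± 0.27 and Psmd2 at -4.10 ± 0.19. In the core 2 of 6 rose, and Psma6 had 1 and 2 reads with GFP against 911 and 900 with LEENE (701-fold higher, 239.6 to 3405). Of 26 lysosomal genes tested, 10 rose and 9 fell, and 7 rose and 9 fell without KO + GFP replicate 2 or 7 and 8 without KO + LEENE replicate 1. Cd63, a membrane protein of lysosomes and exosomes, had 24 and 20 reads with GFP against 472 and 461 with LEENE (4.61 ± 0.15), Atp6v0d1, of the proton pump, 2 and 5 reads with GFP against 271 and 308 with LEENE (6.54 ± 0.25), and Lgmn, a protease, 262 and 178 reads with GFP against 15 and 11 with LEENE (-3.85 ± 0.23). Of 18 autophagy genes tested, 3 rose and 6 fell (7 fell with TMM alone and 6 rose by library size alone), with Sqstm1, the cargo receptor p62, at 41 and 18 reads with GFP against 1245 and 1199 with LEENE (5.59 ± 0.13) and Rb1cc1, which starts autophagosomes, at 1754 and 1195 reads with GFP against 19 and 13 with LEENE (-6.30 ± 0.14). Exons of Sqstm1 and Rb1cc1 overlap those of another gene.

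Cell cycle genes were read at low levels, and 4 of 21 tested rose and 6 fell (9 fell with TMM alone and 7 rose by library size alone). Ccnd1, cyclin D1, had 26 and 28 reads with GFP against 216 and 221 with LEENE (3.22 ± 0.19), and Mcm4, of the replicative helicase, 29 and 10 reads with GFP against 52 and 56 with LEENE (1.68 ± 0.28). Pcna, the sliding clamp of replication, went from 21 and 11 to 0 and 0 reads (at least 2.01-fold lower), and Ccne1, cyclin E1, had 208 and 114 reads with GFP against 8 and 20 with LEENE (-3.29 ± 0.25). H2az1, a histone variant, had 248 and 156 reads with GFP against 1 and 2 with LEENE (116-fold lower, 39.4 to 564), and Mcm7, of the same helicase as Mcm4, 2 and 1 reads with GFP against 28 and 30 with LEENE (22.5-fold higher, 7.32 to 112). Mki67, the marker of dividing cells, had 3 and 1 reads with GFP against 3 and 1 with LEENE and was not called, and no change in proliferation can be read at that depth. Of 10 noncoding RNAs tested, 3 rose and 2 fell (3 fell with TMM alone and 6 rose by library size alone). Meg3, an imprinted lncRNA, had 57 and 41 reads with GFP against 914 and 862 with LEENE (4.39 ± 0.12), and Mirg, from the same imprinted cluster, rose by 3.41 ± 0.31. Neat1 and Kcnq1ot1, with 56 and 41 reads with GFP against 46 and 41 with LEENE and 340 and 216 reads with GFP against 121 and 147 with LEENE, were not called. Xist, which is made in female cells, had 738 and 473 reads with GFP against 28 and 22 with LEENE (-4.37 ± 0.16), and the Y-linked Ddx3y had 7 and 7 reads with GFP against 136 and 145 with LEENE (4.52 ± 0.29) and Uty 79 and 44 reads with GFP against 41 and 60 with LEENE (not called, -0.06 ± 0.22). The sex of the mice behind the libraries is not in the labels, and its part in the result was not tested. Exons of Ccnd1, Mcm7, Meg3, Mirg, Neat1, Kcnq1ot1 and Xist overlap those of another gene.

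Genes were compared by their annotation across classes of log2 fold change with TMM. Among the 2463 genes counted in all 4 libraries, the 319 with a log2 fold change over 2 were protein coding in 90.9% and the 403 under -2 in 90.3%, against 75.6% of the 757 within 0.5. LncRNA and unconfirmed (TEC) genes made up 3.13% and 2.98% of the changed classes and 12.9% of the class within 0.5. The median exon length was 6075 and 5474 bases in the changed classes and 5013 in the class within 0.5, and the median span on the genome 46156, 35566 and 26167 bases. Both changed classes thus held a larger share of coding genes, and a longer median gene, than the class within 0.5. Over all genes tested 77.8% were protein coding, with a median exon length of 4176 bases. With at least 10 reads in all 4 libraries, a gene beyond 2 must have more reads than that in 1 group, so the classes also differ in the reads they require. Genes between 0.5 and 2 are in no class. The classes were drawn with TMM, and by library size the class within 0.5 of 0 lies higher by the shift between the scalings. These values describe the classes and were not tested.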

How the data were processed

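The authors deposited raw read counts per gene, 1 table per library, and normalized none of them. Per the file headers the counts came from featureCounts 2.0.0 over exons without strand, with Ensembl release 84 on GRCm38, and only uniquely aligned reads were counted, so genes with near-identical copies (ribosomal proteins, ferritins, actins) are counted in part. The labels name bcl2fastq 2.18, STAR 2.5.4b and mm10, and poly(A) RNA with 3′ single-cell chemistry used without droplets. No collapse of molecular identifiers is named in the sources used here. The study's methods give another day for the second injection and another build, and the labels and headers were followed.

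In R 4.3.3 the quasi-likelihood test (edgeR 4.0.16) was fitted over all 6 libraries (a mean per group, filterByExpr with a minimum count of 10), with TMM and by library size, and adjusted by Benjamini-Hochberg over 8903 genes. SE is the fold change divided by the root of the F statistic. For a group at 3 reads or fewer in both libraries, folds are ratios of pooled reads over TMM-scaled totals with exact (Clopper-Pearson) intervals, and at 0 reads bounds against 3 reads per library, the lower of TMM and library size. Scripts were tested on simulated data. DESeq2 1.42.0 and the other alternatives are given below. Names came from a later annotation by Ensembl identifier, and coordinates are those of the headers. The genes named are the 10 largest rises and falls, the 6 most abundant genes read in 1 group only, the 10 most abundant and the 6 most abundant not called, up to 3 called genes per list and direction, and genes the study names. Some genes that this rule picks are not reported here. Other list members, such as partners of these genes and subunits, were named after their values were seen, as were Ddx3y and Uty. The comparison and the gene lists were chosen with earlier results of these data known. The locus deleted in Leene-KO was not analysed here, so the genotype labels were not checked.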

Additional observations from a re-analysis of the deposited data

How the results depend on the processing

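Depth limits the KO + LEENE libraries, where 3 reads are 1.69 and 1.67 CPM, and a gene not called is not shown to be unchanged. By library size alone 4467 genes were called higher, and among genes counted in all 4 libraries 2126 were called, 1632 of them higher, with a median of 1.07 over all genes. By TMM alone 938 genes counted in all 4 libraries were called lower. Requiring at least 10 reads before the fit left 1409 DEGs, 908 higher and 501 lower, because fewer genes were tested. With libraries thinned to the smallest total, 326 genes were on in KO + LEENE and 165 in KO + GFP.

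Leaving out each library in turn gave 4677 to 5155 DEGs, 2558 to 2904 higher and 2032 to 2258 lower. Among genes counted in all 4 libraries it gave 1238 to 1403 DEGs, 767 to 921 higher and 471 to 521 lower. The median ran from -0.111 to 0.0292, genes on in KO + LEENE from 209 to 266 and genes on in KO + GFP from 275 to 364. A group left with 1 library was assumed to vary like the others.

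Replicate numbers did not pair the libraries (correlation of same-numbered deviations 0.0193), and with the replicate block 4965 genes were called, 2805 higher and 2160 lower, 4963 of them among the 5117. DESeq2 kept 4535 of the 5117 calls. In every alternative run, 0 of these calls changed sign.

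Of 114 member counts and medians of lists, 14 to 18 moved when 1 KO library was left out, a count by over 1.5 times or a median by over the replicate SD. Moves numbered 50 by library size, 46 without genes of overlapping exons, 25 after thinning, 23 with no filter, 22 in the KO libraries alone, 79 of 99 with at least 10 reads before the fit, and 9 or fewer in the other alternatives.

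Medians turned sign in 8 of 27 lists by library size, 9 with at least 10 reads before the fit, 6 without overlapping genes, 5 after thinning and 5 in the KO libraries alone. They turned in 4 with no filter, 3 without the abundant genes, 1 to 4 without 1 KO library and 2 without 1 WT + GFP library. The balance of rises and falls turned in 4 lists by each scaling alone, 3 with at least 10 reads before the fit, and 2 or fewer in the other alternatives. Among the genes named, those whose sign turned were not called in the comparison as reported. By library size, log2 fold changes were 0.995 for Gm26461, 0.364 for Mir6236, 0.811 for ENSMUSG00000106106, 1.02 for Rn7s6, 0.959 for Gm22567, 1.03 for Gm13340, 1.06 for Tug1 and 0.362 for Nos3. With at least 10 reads before the fit Tug1 was at 0.0145. With no filter Gm13340 was at 0.00850 and Tug1 at 0.0415. After thinning Gm26461 was at 0.0657, Rn7s6 at 0.0809, Gm22567 at 0.0315, Gm13340 at 0.109 and Tug1 at 0.124. Leaving out 1 library moved Pecam1 from -0.00791 (without KO + GFP replicate 2) to 0.200. The turns by library size follow from its shift of about 1.14, and the cause of the others was not tested.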
